A study of Mus musculus with 8 samples.

Results

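Actin and the contractile and adhesion genes that serum response factor (SRF) controls were followed in 4T1 cells, a line of mouse mammary tumor cells that serves as a model of triple-negative breast cancer. The group holds 10 genes named by symbol, *Actb*, *Actg1*, *Acta2*, *Tagln*, *Tagln2*, *Tpm1*, *Myl9*, *Cnn2*, *Vcl* and *Srf*, out of 25676 genes listed in both deposited tables, and each symbol stood on 1 row per table. The study added single-domain antibodies (sdAbs), small antibody fragments of camelid type, to wild-type 4T1 cells that had reached confluence, at 0.5 μg/mL. In the files used here, 3 groups of 2 libraries were compared, namely sdAb#07.81, which binds the stress protein NUPR1, for 24 h, sdAb#07.81 for 48 h and the control antibody sdAb-Con for 48 h. All cells were kept at 1% O2, and the methods describe the delivery of the purified sdAbs as transfection. The untreated Con group was not analysed here, and sdAb-Con was sampled at 48 h alone, so between sdAb-Con (48 h) and the 24 h group, time and antibody cannot be told apart.

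SRF is a transcription factor that binds the CArG box, a short stretch of A and T letters between CC and GG. Its partners of the MRTF family are held in the cytoplasm by unpolymerised actin. When actin is drawn into filaments, MRTF is released, enters the nucleus and turns on actin, tropomyosin, calponin, vinculin and other cytoskeleton genes with SRF. Partners of the TCF family (the Elk factors) bind the same SRF and serve immediate early genes such as *Fos* and *Egr1*. In epithelial tumor cells this program is known for its part in shape, adhesion and movement.

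RefSeq promoter windows (build GRCm38.p6, 250 bases before to 50 bases after the start of transcription) were at hand for 8 of the 10 genes, all but *Actb* and *Tagln*. A CArG box, whose consensus pattern is the same on both strands although a single box need not be, was found in 5 of these 8 windows and in 1.63% (535 of 32851) of all windows of this length. The stretches around the boxes are printed here because SRF is the factor that the group shares, with the box in capitals, 5′ to 3′ on the strand of the gene. They lie at chr11:120348546-120348615 on the minus strand (*Actg1*), chr10:79988514-79988583 on the plus strand (*Cnn2*), chr14:20929148-20929210 on the plus strand (*Vcl*), chr2:156775273-156775342 on the plus strand (*Myl9*) and chr17:46556185-46556274 on the minus strand (*Srf*).
Actg1: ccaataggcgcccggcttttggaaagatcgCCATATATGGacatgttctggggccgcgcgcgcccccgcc
Cnn2: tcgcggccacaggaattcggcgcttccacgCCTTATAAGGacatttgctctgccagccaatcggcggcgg
Vcl: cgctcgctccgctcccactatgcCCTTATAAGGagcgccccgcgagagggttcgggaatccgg
Myl9: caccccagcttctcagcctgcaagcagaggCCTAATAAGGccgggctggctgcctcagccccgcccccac
Srf: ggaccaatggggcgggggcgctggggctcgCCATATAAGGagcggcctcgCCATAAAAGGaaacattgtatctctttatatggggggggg

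The box of *Cnn2* began 56 bases before the start of transcription, that of *Actg1* 90 bases, that of *Myl9* 161 bases and that of *Vcl* 227 bases. *Srf* held 2 boxes, at 82 and 62 bases before its start. *Cnn2* and *Vcl* carried the same box letters. The windows of *Tpm1*, *Tagln2* and *Acta2* held no such letters, which says nothing of sites elsewhere in these genes.

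Each table lists, per gene, the mean over 4 libraries of counts divided by size factors. Genes with only 1 read revealed the size factor of every library, and with these the reads of each library could be recovered as whole numbers for 28706 of 28712 genes. Library totals ranged from 15886120 to 19021849 reads in genes. The libraries of a group are called A and B here, with no tie to the submitters' replicate numbers, and nothing in the labels says that they came from separate cultures, so p-values measure the spread between libraries, which may be technical. Epithelial markers (*Epcam*, *Cdh1*, *Krt8*, *Krt18*, *Krt7*, *Cldn4*) summed to 44920 to 57150 normalized counts per library, immune markers to 1.03 to 7.60 and endothelial markers to 1.90 to 13.7. Fibroblast markers summed to 1289 to 1410 at 24 h and 953 to 1093 in the 48 h groups, a sum carried by *Pdgfra* (950 and 1238 at 24 h). The others set library B of sdAb#07.81 (24 h) apart from library A. *Col1a1* had 214 reads in library A and 40 in library B, *Col1a2* 176 and 8, *Dcn* 52 and 3, *Lum* 38 and 0 and *Thy1* 24 and 2, whereas the 48 h libraries held 139 to 206 reads of *Col1a1* and 105 to 151 of *Col1a2*. In sdAb-Con (48 h) against sdAb#07.81 (24 h), 3 of 5 fibroblast markers tested were higher and 1, *Pdgfra*, lower, beside 25.4% and 26.1% of all genes, and their part in the results against 24 h was not tested. *Nupr1* itself stood at 1545 and 2121 normalized counts at 24 h, 2898 in both libraries of sdAb#07.81 (48 h), and 3549 and 2976 in sdAb-Con (48 h), and since the sdAb acts on the protein this is no check of the labels.

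**Figure D1:**
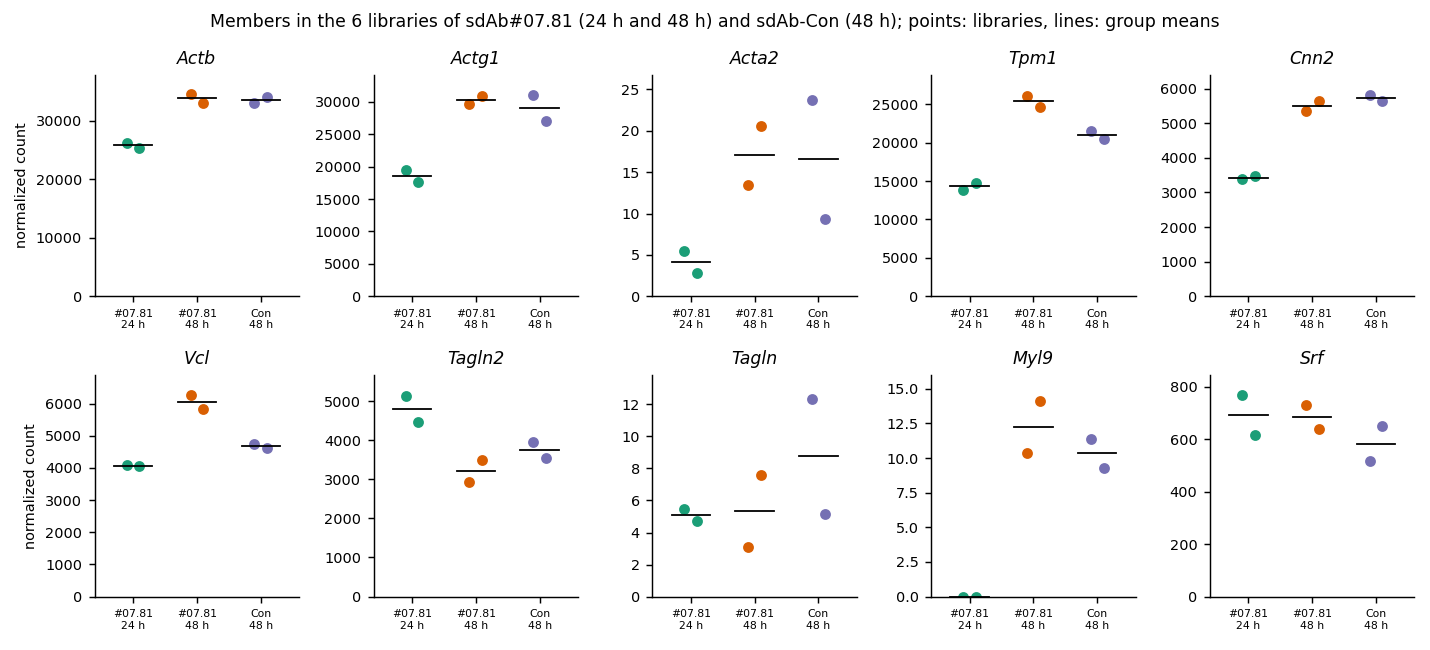
Normalized counts (reads divided by size factors, linear axes from 0) of the 10 genes in the 6 libraries, with points for libraries and lines for group means (#07.81 stands for sdAb#07.81 and Con for sdAb-Con). *Actb*, *Actg1*, *Tpm1*, *Cnn2* and *Vcl* were lower in both 24 h libraries than in the 48 h libraries, *Tagln2* was higher there, and *Myl9* had 0 reads at 24 h.

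The 10 genes spanned a wide range of levels. On the RPKM scale, which divides reads by the length of the longest annotated transcript and by the library total, the cytoplasmic actins led in sdAb#07.81 (48 h), *Actb* with a mean of 1024 and *Actg1* with 902. *Tpm1* followed at 511. *Cnn2* at 130 and *Tagln2* at 118 did not differ beyond the spread of their libraries, which overlapped. *Vcl* had 66.9 RPKM and *Srf* 15.2 RPKM. The smooth muscle genes stood at the bottom of the order, with 0.631 RPKM for *Myl9*, 0.487 for *Acta2*, whose libraries overlapped those of *Myl9*, and 0.195 for *Tagln*. In sdAb#07.81 (24 h) the order of the upper genes was the same except that *Tagln2* at 179 RPKM lay above *Cnn2* at 82.2 RPKM, with no overlap of their libraries. In sdAb-Con (48 h) these genes stood at 134 and 132 RPKM and overlapped again.

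Cytoplasmic actins. *Actb* (ENSMUSG00000029580, chromosome 5 from 142888870 to 142892509 on the minus strand, as the tables list it with no build named) encodes beta-actin, the most abundant filament protein of non-muscle cells and a common loading control. Its normalized count was 26199 in library A and 25325 in library B of sdAb#07.81 (24 h), 34607.5 and 32961 in sdAb#07.81 (48 h), and 32979.5 and 34053 in sdAb-Con (48 h). Both 24 h libraries lay below the other libraries, and the 48 h groups overlapped. *Actg1* (ENSMUSG00000062825, chromosome 11 from 120236516 to 120239368, minus strand) encodes gamma-actin, its near twin, and the reads of such close relatives can be misassigned in part. Its normalized counts were 19422.5 and 17649 at 24 h, 29642 and 30867 in sdAb#07.81 (48 h), and 31025.5 and 27026 in sdAb-Con (48 h). The pattern was that of *Actb* with a wider gap, and the 48 h groups overlapped.

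Filament-binding and adhesion proteins. *Tpm1* (ENSMUSG00000032366, chromosome 9 from 66929872 to 66956688, minus strand) encodes a tropomyosin, which winds along actin filaments and steadies them. Its normalized counts were 13829.7 and 14812 at 24 h, 26123 and 24652 in sdAb#07.81 (48 h), and 21474 and 20541.5 in sdAb-Con (48 h). The groups did not overlap, and sdAb-Con (48 h) lay between the others. *Vcl* (ENSMUSG00000021823, chromosome 14 from 20979466 to 21083744, plus strand) encodes vinculin, which ties actin filaments to focal adhesions and cell junctions. Its normalized counts were 4076 and 4048 at 24 h, 6272 and 5824 in sdAb#07.81 (48 h), and 4753 and 4618 in sdAb-Con (48 h), so that sdAb#07.81 (48 h) stood highest without overlap.

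*Cnn2* (ENSMUSG00000004665, chromosome 10 from 79824418 to 79831896, plus strand) encodes the calponin of non-muscle cells, an actin-binding inhibitor of myosin. Its normalized counts were 3391 and 3466 at 24 h, 5348 and 5633 in sdAb#07.81 (48 h), and 5812 and 5654 in sdAb-Con (48 h). The 48 h groups lay close together, sdAb-Con slightly above. *Tagln2* (ENSMUSG00000026547, chromosome 1 from 172327614 to 172334947, plus strand) encodes transgelin 2, the form of this actin-binding protein found outside smooth muscle. It had 5142 and 4468 normalized counts at 24 h, 2932 and 3489.7 in sdAb#07.81 (48 h), and 3961 and 3538 in sdAb-Con (48 h). It was the member whose order of groups ran opposite to that of *Tpm1*, highest at 24 h and lowest in sdAb#07.81 (48 h).

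Smooth muscle forms. *Acta2* (ENSMUSG00000035783, chromosome 19 from 34218490 to 34232990, minus strand), the smooth muscle actin, had 6 and 3 reads at 24 h, 13 and 19 in sdAb#07.81 (48 h), and 25 and 9 in sdAb-Con (48 h). *Myl9* (ENSMUSG00000067818, chromosome 2 from 156617340 to 156623578, plus strand), a regulatory light chain of myosin, had 0 and 0 reads at 24 h, 10 and 13 in sdAb#07.81 (48 h), and 12 and 9 in sdAb-Con (48 h). *Tagln* (ENSMUSG00000032085, chromosome 9 from 45840917 to 45847356, minus strand), the smooth muscle transgelin, had 6 and 5 reads at 24 h, 3 and 7 in sdAb#07.81 (48 h), and 13 and 5 in sdAb-Con (48 h), with all groups overlapping. The summed smooth muscle markers (*Myh11*, *Des*, *Cnn1*, *Lmod1*, *Actg2*, *Myocd*) were 6.38 to 8.55 normalized counts at 24 h and 26.9 to 39.3 in the 48 h groups, with 5 of 6 markers read in every group and *Myocd*, the muscle partner of SRF, at 0 reads, and their part in the values of *Acta2* and *Myl9* was not tested. In bulk RNA, fewer cells of a type and less RNA per cell cannot be told apart.

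The transcription factor. *Srf* (ENSMUSG00000015605, chromosome 17 from 46859255 to 46867101, minus strand) had 769.8 and 614 normalized counts at 24 h, 729 and 638 in sdAb#07.81 (48 h), and 516 and 649.9 in sdAb-Con (48 h). All groups overlapped. The libraries of a group differed more for *Srf* than for *Cnn2* or *Vcl*.

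To ask what sdAb#07.81 changed at a fixed time, sdAb#07.81 (48 h) was compared with sdAb-Con (48 h). *Vcl* and *Tpm1* were higher with sdAb#07.81, while both actins, *Cnn2* and *Srf* were not called. In the deposited fit, the log2 fold change of *Vcl* was 0.37 with a standard error (SE) of 0.0882, a 1.30-fold difference, and its adjusted p was 0.000555. That of *Tpm1* was 0.28 (SE 0.0938), a 1.21-fold difference with an adjusted p of 0.0239. Calls here and in the next comparison rest on the deposited Wald p-values, adjusted by the Benjamini-Hochberg method over genes whose mean normalized count reached 10, at a threshold of 0.05.

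Of the 10 genes, 9 passed this filter and *Tagln*, with a mean of 6.85, did not. Among all 13876 genes tested, 16.6% were called, 9.90% higher and 6.75% lower, against 2 of the 9 genes higher and 0 lower (0 lower also at an unadjusted p under 0.05 and by limma). The median log2 fold change was 0.065 over the 9 genes and -0.022 over all genes tested. *Actb* differed by 0.017 (95% interval -0.17 to 0.20) and *Actg1* by 0.065 (-0.15 to 0.28), so that a change of either actin by more than 0.28 on the log2 scale lay outside these intervals. *Cnn2* differed by -0.057 (SE 0.0857), *Tagln2* by -0.22 (SE 0.113, adjusted p 0.181) and *Srf* by 0.24 (SE 0.151, adjusted p 0.31). The intervals of the scarce genes were wide, -1.26 to 1.34 for *Acta2* and -1.18 to 1.66 for *Myl9*.

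This comparison depended on the fit. With limma on the recovered reads, which called 9.99% of all genes, *Vcl* was called with an adjusted p of 0.0313 and *Tpm1* was not (0.109). *Vcl* lost its call without library A or library B of sdAb-Con (48 h) and without library A of sdAb#07.81 (48 h). Each of these fits leaves 1 library in a group, and each called fewer genes over all genes as well. The limma differences themselves stood at 0.27 for *Tpm1*, and for *Vcl* at 0.37 with every library and at 0.38, 0.35 and 0.31 without these. Fold changes also rose with transcript length across all genes (Spearman correlation 0.452, a description over 13725 genes of the same libraries), with a median of -0.23 in the shortest 25% of genes and 0.21 in the longest 25%. The longest transcript of *Vcl* measured 5.27 kb and that of *Tpm1* 2.89 kb, while those of the actins measured 1.92 kb (*Actb*) and 1.95 kb (*Actg1*). After a smooth trend with transcript length, GC and mean level was removed, 5.25% of all genes and 4 of the 9 genes were called, *Tpm1* at 0.44, *Actg1* at 0.36, *Actb* at 0.31 and *Vcl* at 0.28, with adjusted p of 0.00026, 0.0231, 0.0231 and 0.0325.

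**Figure D2:**
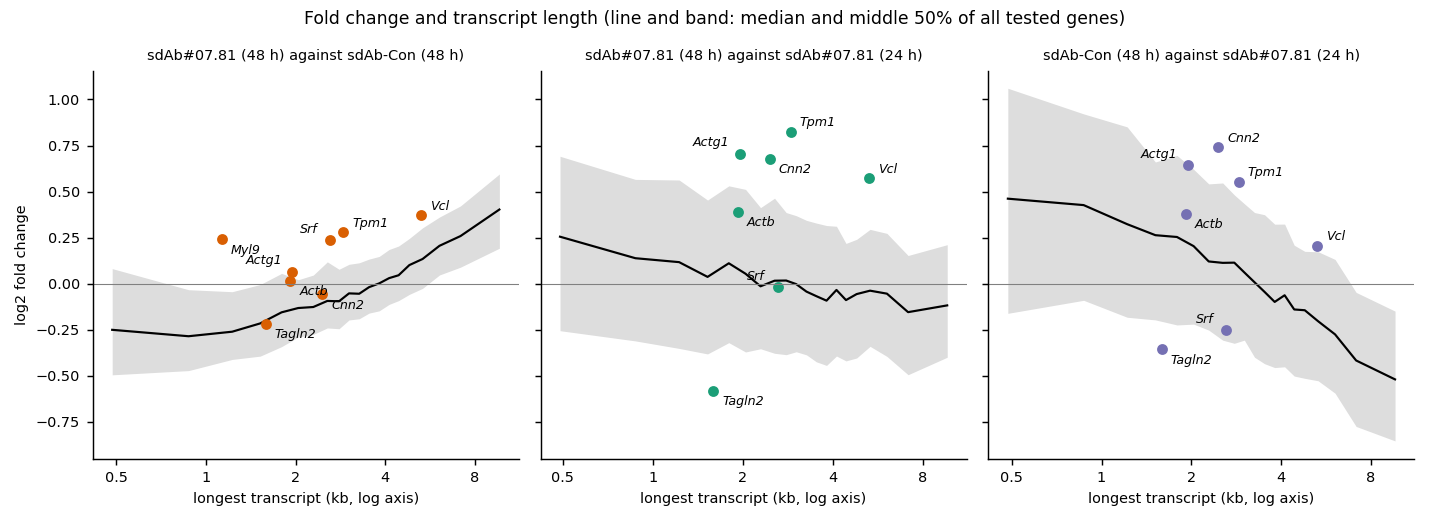
Log2 fold change (y axis) against the longest annotated transcript in kb (log x axis) in 3 comparisons, with the median and the middle 50% of all tested genes in 20 bins as line and band, and tested members as points (*Acta2*, whose values reach 2.03, is left out of every panel). Against sdAb-Con (48 h) the band rises with length and *Tpm1*, *Actg1* and *Actb* lie above the line, while in sdAb-Con (48 h) against sdAb#07.81 (24 h) it falls.

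To follow the cells over time under the same antibody, sdAb#07.81 (48 h) was compared with sdAb#07.81 (24 h). *Tpm1*, *Actg1*, *Cnn2*, *Vcl* and *Actb* were higher at 48 h and *Tagln2* was lower. *Tpm1* differed by 0.83 on the log2 scale (SE 0.085, 1.77-fold, adjusted p 1.12e-20), *Actg1* by 0.71 (SE 0.0884, 1.63-fold, adjusted p 3.15e-14) and *Cnn2* by 0.68 (SE 0.0889, 1.60-fold, adjusted p 4.52e-13). *Vcl* rose by 0.57 (SE 0.0891, 1.49-fold, adjusted p 1.55e-09) and *Actb* by 0.39 (SE 0.0821, 1.31-fold, adjusted p 1.29e-05). *Tagln2* fell by 0.58 (SE 0.112, adjusted p 1.64e-06), to 0.668 times its 24 h level.

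*Srf* itself was not called, with a log2 fold change of -0.019 (95% interval -0.32 to 0.28). *Acta2* differed by 2.03 (SE 0.887, adjusted p 0.0527) and was not called, though limma on the recovered reads called it at 1.94 with an adjusted p of 0.0177. With a mean of 4.16 normalized counts at 24 h, *Acta2* passed the filter only through the 48 h groups, where it was high, so its calls in both comparisons with the 24 h group support nothing here. *Myl9* lay under the filter, with a mean of 6.14. Set against a floor of 3 reads over the 24 h group, its mean was 8.77-fold higher in sdAb#07.81 (48 h) and 7.42-fold higher in sdAb-Con (48 h). The error of its 23 and 21 reads at 48 h is not in these ratios, so they are no lower bounds. *Tagln* was not tested, and its log2 fold change of 0.063 had an SE of 1.19.

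In this comparison 41.9% of the 13968 genes tested were called, 19.8% higher and 22.1% lower. Of the 8 members tested, 5 were higher and 1 lower. Without *Acta2*, the middle value of the other 7 was that of *Vcl* at 0.57, against a median of -0.014 over all genes tested. Limma called 43.3% of all genes and, among the members, the same 6, beside *Acta2*, whose call supports nothing here. The trend with length was weaker (Spearman correlation -0.125), and its removal left 41.4% of all genes called and lowered *Actb* to 0.12 with an adjusted p of 0.226, while *Actg1* (0.48), *Tpm1* (0.69), *Cnn2* (0.68), *Vcl* (0.65) and *Tagln2* (-0.64) were still called. With limma, *Actb* also lost its call without library B of sdAb#07.81 (24 h), though its difference stayed at 0.36, against 0.39 with every library. *Acta2* lost its call without library B of sdAb#07.81 (48 h) (1.65) or without library B of sdAb#07.81 (24 h) (1.53).

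**Figure D3:**
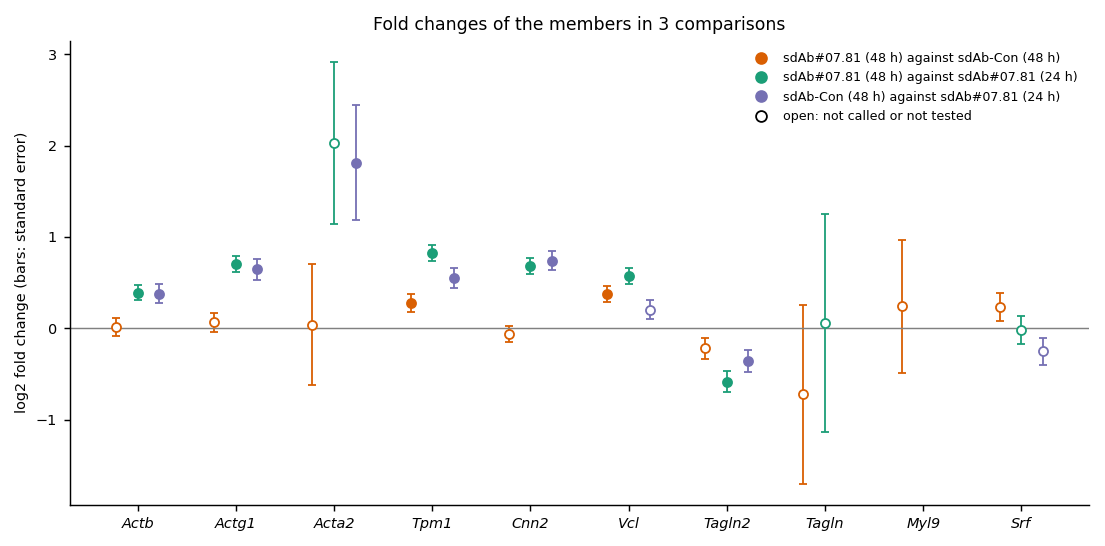
Log2 fold change with its standard error (bars) of each member in 3 comparisons, with filled points for calls at an adjusted p under 0.05 and open points for genes not called or not tested. *Myl9* has no point where the 24 h libraries hold 0 reads, *Actb*, *Actg1* and *Cnn2* sit near 0 against sdAb-Con (48 h) and at 0.38 to 0.74 in the comparisons with the 24 h group.

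The difference between these comparisons is the contrast of sdAb-Con (48 h) with sdAb#07.81 (24 h), which no deposited table gives. It was fitted with limma on the recovered reads of the 6 libraries. *Cnn2* was higher in sdAb-Con (48 h) by 0.74 (SE 0.103, adjusted p 9.79e-06), *Actg1* by 0.65 (SE 0.113, adjusted p 0.000112), *Tpm1* by 0.55 (SE 0.107, adjusted p 0.000297) and *Actb* by 0.38 (SE 0.107, adjusted p 0.00627). *Acta2* differed by 1.81 (SE 0.631), a description for the reason given above, although it was called (adjusted p 0.0224). *Tagln2* was lower, at -0.36 (SE 0.118, adjusted p 0.0169). *Vcl* (0.21, SE 0.104, adjusted p 0.105) and *Srf* (-0.25, SE 0.149, adjusted p 0.167) were not called.

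The share called among all 13947 genes was 51.4%, with 25.4% higher and 26.1% lower, against 5 higher and 1 lower of 8 members, or 4 higher and 1 lower of 7 without *Acta2*. The middle value of these 7 was that of *Actb* at 0.38, against a median of 0.0008 over all genes tested. Set side by side, *Actb* stood at 0.38 here and at 0.39 for sdAb#07.81 (48 h) against 24 h, *Actg1* at 0.65 and 0.71, *Cnn2* at 0.74 and 0.68, *Tpm1* at 0.55 and 0.83, and *Vcl* at 0.21 and 0.57, in comparisons that share the 24 h libraries. For *Vcl* and *Tpm1* the step between these pairs is the difference from sdAb-Con (48 h) given above. The difference of the deposited log2 fold changes gave nearly the values of limma, for example 0.37 for *Actb* and 0.64 for *Actg1*.

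The length trend was steep here as well (Spearman correlation -0.328), with medians of 0.33 in the shortest and -0.30 in the longest 25% of genes. Its removal left 46.1% of all genes called and, among the members, *Cnn2* (0.52), *Vcl* (0.35, adjusted p 0.0104) and *Tagln2* (-0.73). *Acta2* (1.84) was called too, which supports nothing for the reason given above. *Actg1* moved to 0.057 (adjusted p 0.708), *Tpm1* to 0.20 (adjusted p 0.135) and *Actb* turned to -0.26 (adjusted p 0.0571). In limma fits with the trend left in, *Acta2* lost its call without library A of sdAb-Con (48 h) (1.15) or library B of sdAb#07.81 (24 h) (1.39). *Tagln2* lost its call without library B of sdAb-Con (48 h) (-0.27) or library A of sdAb#07.81 (24 h) (-0.26). Without library B of sdAb#07.81 (24 h), *Actb* lost its call, though its difference stayed at 0.35, against 0.38 with every library. In that fit *Srf* gained a call, at -0.42.

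Other genes of the pathway were described from lists of known members. Beside the 3 actins above, *Acta1*, the skeletal muscle actin, was read in every library, with 1 and 4 reads at 24 h, 43 and 39 in sdAb#07.81 (48 h), and 61 and 36 in sdAb-Con (48 h). It was 4.22 higher on the log2 scale in sdAb#07.81 (48 h) than at 24 h (SE 0.82), a description, since with a mean of 2.36 normalized counts at 24 h it passed the filter only through the 48 h libraries. Against sdAb-Con (48 h) it differed by -0.13 and was not called. The cardiac actin *Actc1* had 1 read in all 6 libraries together.

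Of 7 SRF cofactors tested, 3 were higher and 0 lower with sdAb#07.81 than with sdAb-Con (48 h) (0 lower also at an unadjusted p under 0.05 and by limma), beside 9.90% of all genes higher. After removal of the trend 1 of the 7 was called, beside 5.25% of all genes. *Scai*, a repressor of MRTF, rose by 0.96 (SE 0.154, adjusted p 5.75e-08), the TCF factor *Elk4* by 0.50 (SE 0.118) and *Mrtfb*, the sensor of free actin, by 0.44 (SE 0.124). Against 24 h, 2 of 7 were higher, *Scai* by 0.77 (SE 0.141) and the SRF-binding cofactor *Fhl2* by 0.62 (SE 0.105), and 1 was lower, *Elk3* at -0.42 (SE 0.097), beside 41.9% of all genes called in either direction.

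Of the other MRTF-SRF targets, 5 of 21 tested were higher against sdAb-Con (48 h) and 0 lower (0 also at an unadjusted p under 0.05 and by limma), with a median of 0.076, beside 9.90% of all genes higher and 6.75% lower. They included *Filip1l* at 0.72 (SE 0.0912), *Myh9*, the heavy chain of non-muscle myosin, at 0.39 (SE 0.118), *Pdlim5* at 0.37 (SE 0.0959) and *Lima1*, a bundler of filaments, at 0.26 (SE 0.0883). Limma called 3 of them, beside 9.99% of all genes, and 2 were called after removal of the trend, beside 5.25% of all genes. Against 24 h, 10 of 20 were higher and 4 lower, with a median of 0.22, beside 19.8% of all genes higher and 22.1% lower. The tropomyosin *Tpm2* differed by 2.17 (SE 0.28) and the myosin light chain *Myl12b* by 0.98 (SE 0.119), while the filament cross-linker *Flna* fell by 0.74 (SE 0.0896) and *Smtn*, smoothelin, by 0.73 (SE 0.105). This list thus held calls in both directions over time, as the members did with *Tagln2*.

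Of 9 immediate early targets of SRF and TCF, 0 were higher against sdAb-Con (48 h) (0 also at an unadjusted p under 0.05 and by limma) and 2 lower, *Ier2* at -0.63 (SE 0.122) and *Junb* at -0.31 (SE 0.0997), beside 16.6% of all genes called in either direction. Limma called 1 of them lower, and 0 were called after removal of the trend. Against 24 h, *Fos* was higher by 1.87 (SE 0.626) and *Junb* by 0.63 (SE 0.124), while *Ier2* (-0.37, SE 0.143) and the survival gene *Mcl1* (-0.29, SE 0.097) were lower, which makes 4 of 9 called beside 41.9% of all genes.

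Genes of actin turnover held calls in both directions. Against sdAb-Con (48 h), 1 of 24 was higher and 6 lower, led by *Arpc1b* of the Arp2/3 complex (-0.49, SE 0.0869) and the actin monomer binder *Pfn1* (-0.44, SE 0.0881), with the filament-capping *Capg* (-0.40, SE 0.116) and *Arpc4* (-0.38, SE 0.123), beside 9.90% of all genes higher and 6.75% lower. Limma called 0 higher and 3 lower, and after removal of the trend 0 were higher and 1 lower. Against 24 h, 6 were higher and 7 lower, beside 19.8% and 22.1% of all genes. *Pfn2*, the second profilin, stood at 186 to 241 normalized counts at 24 h and 859 to 993 in the 48 h groups, a log2 difference of 2.06 (SE 0.163, adjusted p 1.75e-34), whereas *Pfn1* fell by 0.86 (SE 0.0973). The monomer binder *Tmsb4x* (1.04, SE 0.279) and the filament-severing *Dstn* (0.93, SE 0.0976) were higher.

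Tubulins, keratins and vimentin build the other filament systems of the cell. Of 12 genes of tubulins, keratins and vimentin, all 12 had a negative log2 fold change against sdAb-Con (48 h), of which 3 were called lower and 0 higher (0 also at an unadjusted p under 0.05 and by limma), namely *Tuba1b* (-0.62, SE 0.122), *Tubb6* (-0.44, SE 0.103) and *Tubb5* (-0.38, SE 0.11), and none of the 3 was called after removal of the trend. Of all genes tested, 6.75% were called lower and 16.6% in either direction. Against 24 h, 5 were lower and 1 higher, beside 22.1% and 19.8% of all genes, and after removal of the trend 8 were lower and 0 higher. The largest differences of the list were *Tuba1b* at -1.49 (SE 0.255), *Tuba1c* at -1.26 (SE 0.14) and *Tubb4b* at -0.83 (SE 0.117), beside *Actg1* at 0.71 and *Tpm1* at 0.83.

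**Figure D4:**
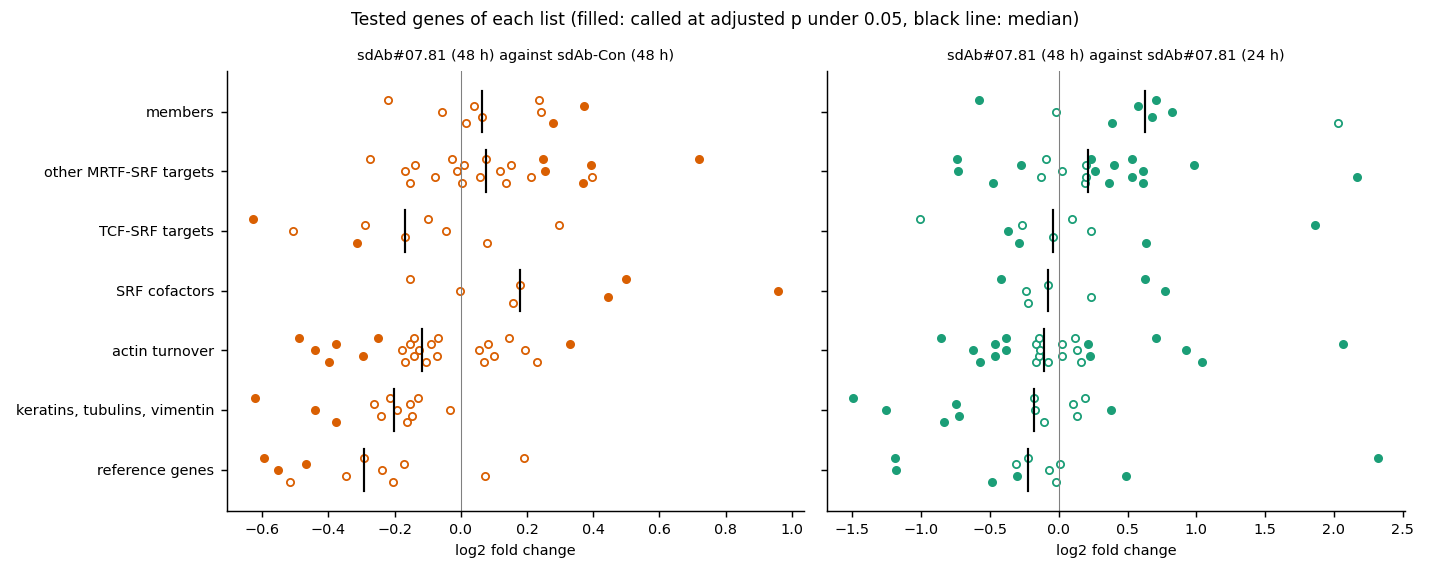
Log2 fold changes (x axis) of the tested genes of 7 lists in both deposited comparisons of sdAb#07.81 (48 h), with filled points for called genes and a black line for the median of each list. The members lie mostly right of 0 against the 24 h group, with *Tagln2* at -0.58, while all 12 tubulin, keratin and vimentin genes lie left of 0 against sdAb-Con (48 h).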

How the data were processed

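The authors isolated total RNA from the cells and sequenced it as paired reads on an Illumina NovaSeq instrument. Per the labels, reads were processed with cutadapt 1.9.1, HISAT2 2.0.1 and HTSeq 0.6.1. The processing notes name a human genome build for these mouse samples, so the build of the tables is taken as not given. Whether reads were counted by strand is not given in the sources used here. The deposited tables hold results of comparisons. The mean normalized count (a signal, deposited as counts divided by size factors and averaged over 4 libraries), the authors' log2 fold change without shrinkage, its standard error, the deposited Wald score and the authors' two-sided p-value were used for the members, since the members are defined on these rows.

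Reads per library were solved for each gene jointly over both tables from the 15 digits of the means and the fold changes, with exactly 1 solution for 28706 genes and several for 6, which were left out. Size factors computed from the recovered reads differed from those read off the tables by at most 0.0177%. Deposited p-values were adjusted by the Benjamini-Hochberg method over genes with a mean of at least 10. limma 3.58.1 (voom, R 4.3.3) was fitted to the recovered reads of the 3 groups with median-of-ratios size factors. The planned quasi-likelihood count test was replaced by limma on these recovered reads. The trend was a weighted polynomial of degree 3, with transcript length from the reference annotation for 98.9% of genes. Its own error is not in the standard errors. Other steps ran in Python 3.11.15 (scipy 1.17.1, matplotlib 3.10.9, numpy 2.4.6, pandas 2.3.3). Each step was tested on simulated data. The members and lists were chosen with earlier results of these data known. All 10 members were named, and of each other list reported up to 4 called genes per comparison with the largest change. Some genes of these lists, and 1 further list, are not reported here. *Acta1*, *Actc1* and *Pfn2* are shown with single-library values chosen after these were seen.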

Additional observations from a re-analysis of the deposited data

How the results depend on the processing

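Reads were counted per library with only 2 libraries a group, and the scarce genes *Acta2*, *Myl9* and *Tagln* carried under 30 reads a library, which limits what could be seen of them. The count of members called against sdAb-Con (48 h), 2 in the report, was 0 at a minimum of 1.5-fold or 2-fold, 4 after removal of the trend, 1 with the Benjamini-Yekutieli adjustment, 1 with limma, and 0 to 1 when each library was left out (with limma, the lone library of a group being assumed to vary like the others). Against sdAb#07.81 (24 h), 6 in the report, it was 3 at a minimum of 1.5-fold, 0 at 2-fold and 5 to 7 when each library was left out. For sdAb-Con (48 h) against sdAb#07.81 (24 h) it was 5 to 6 when each library was left out. With other filters on low counts, run for the 2 deposited comparisons alone, the count of members stayed within 1.5 times. Of all 13876 genes tested against sdAb-Con (48 h), 606 were called at 1.5-fold, 154 at 2-fold and 1008 with the Benjamini-Yekutieli adjustment. Of all 13968 genes tested against 24 h, 3384 were called at 1.5-fold and 1466 at 2-fold. In both comparisons with the 24 h group some of these counts of members include *Acta2*, whose calls there support nothing. Removal of the trend turned the sign of *Acta2* (-0.029), *Tagln2* (0.059) and *Cnn2* (0.12) against sdAb-Con (48 h), of *Srf* (0.081) against 24 h, and of *Actb* (-0.26) between sdAb-Con (48 h) and 24 h, and its cause was not tested. Leaving out a library turned the sign of *Actb* (-0.030 to 0.042), *Actg1* (-0.038 to 0.16) and *Acta2* (-0.50 to 0.80) against sdAb-Con (48 h), and of *Srf* against 24 h (-0.18 to 0.15). No called value of a deposited comparison turned its sign. No paired analysis was possible because the columns carry no replicate numbers. The planned quasi-likelihood test and refit of the count model were not run. The use of limma in place of the planned tests, and the count of members after removal of the trend in the contrast between both tables, were chosen after seeing the data.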

Other observations

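Genes often used to normalise RNA or protein amounts, and with which *Actb* is commonly listed, were set beside it. Against sdAb-Con (48 h), where *Actb* differed by 0.017, 3 of 11 such genes were lower and 0 higher (0 also at an unadjusted p under 0.05 and by limma), namely *Gusb* at -0.59, *Gapdh* at -0.55 and *Rplp0* at -0.47 on the log2 scale, beside 16.6% of all genes called and 6.75% lower. After removal of the length trend 1 of the 11 was called lower. Against sdAb#07.81 (24 h), where *Actb* rose by 0.39, 2 were higher, among them *Rplp0* at 0.49, and 4 were lower, *Ppia* at -1.19, *Gusb* at -1.19, *Pgk1* at -0.49 and *Gapdh* at -0.31, beside 41.9% of all genes called. *Sdha* (0.010) and *Ywhaz* (-0.070) were not called there, nor against sdAb-Con (48 h).

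The epithelial markers of 4T1 cells gave a further set of values beside the cytoskeleton genes. Against 24 h, *Cldn4*, a claudin of tight junctions, was 1.15 higher and *Cdh1*, E-cadherin, 0.63 higher, while *Epcam* (-0.032), *Krt8* (-0.18) and *Krt18* (0.11) were not called. Against sdAb-Con (48 h), *Cdh1* was higher by 0.33, a difference that limma did not call, and *Cldn4* differed by -0.038.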
